A study of Mus musculus with 61 samples.

Results

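The effect of adding Ngn3 to cells that carried the Pdx1 and MafA vectors was measured in sorted cells. The comparison was of 5 samples sorted for all 3 factors with 6 samples sorted for Pdx1 and MafA and lacking the Ngn3 reporter. These 11 samples, out of 32 in the series, were chosen by their labels: every library of either sort with more than 1000000 gene counts was kept, and repeat libraries of one biological replicate were summed. All cells came from three-dimensional ductal organoids of C57BL/6 mouse pancreas, infected with lentiviral vectors that carry GFP-Ngn3, LSSOrange-Pdx1 and tdTomato-MafA under a doxycycline-inducible promoter together with a vector for the transactivator. After 8 days of transgene induction the organoids were dissociated and pools of 50 cells were sorted by colour. The triple-factor group held 3 samples with wild-type Ngn3 (GFP-WTNgn3) and 2 with a phosphomutant in which 6 serines are replaced by alanine (GFP-6SANgn3). The Pdx1+MafA group held 3 samples sorted from the WTNgn3 cultures and 3 from the 6SANgn3 cultures, so its cells had shared a dish with Ngn3 cells, and every sample of both groups was grown in the same organoid medium with EGF, FGF10, R-spondin and Noggin. Replicates 1 and 2 were at passage 2 and replicate 3 at passage 5, and whether replicates of one passage came from separate infections is not stated, so the p-values measure the spread between these samples. The third 6SA triple-factor replicate fell under the depth limit, so passage 5 was represented by 1 of the 5 triple-factor and 2 of the 6 Pdx1+MafA samples. A colour marks a cell that holds the vector, not how much factor it makes, and a pool of 50 cells cannot show whether all its cells responded alike.

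Ngn3 (gene symbol Neurog3) is the basic helix-loop-helix factor that commits pancreatic progenitors to the endocrine lineage, where it switches on a cascade of further transcription factors, raises Notch ligands and is followed by exit from the cell cycle. Pdx1 and MafA are homeodomain and basic leucine zipper factors of mature β cells, which bind the insulin gene and other β-cell genes. Ductal organoid cells keep the keratins, mucins and ion transporters of the duct, and in growth medium they divide and express a set of innate defence genes.

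Gene counts per sample ran from 6029553 to 13634045 in the triple-factor group and from 6195668 to 17707047 in the Pdx1+MafA group, so that 3 counts, taken here as the detection floor, correspond to 0.177 to 0.523 CPM, counts scaled to a fixed library size. All levels are CPM after TMM scaling. All fold changes are log2 values ± SE from edgeR's quasi-likelihood test, averaged over the WT and 6SA cultures, and a gene was called when its Benjamini-Hochberg adjusted p over the 24004 genes tested was under 0.05. Fitted fold changes of genes with almost no counts in the Pdx1+MafA samples are imprecise, and where all 6 were at 0 only the lower bound against the floor is given. Because the samples were pools, fewer cells of a type and less RNA per cell cannot be told apart. The WT triple-factor replicate 3, the only passage 5 sample of its group, stood apart with the lowest granule, exocytosis, channel and neuronal sums and the highest YAP, EGF and duct sums of the group, and the 6SA triple-factor replicate 2 held the highest mitosis and the lowest ribosomal protein sum of the group.

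The sorted factors were checked first. Neurog3 (chr10:62133090-62134763, GRCm38) measured 196, 167 and 14.6 CPM in the WT and 163 and 329 CPM in the 6SA triple-factor samples, against 0 to 0.697 CPM in the 6 Pdx1+MafA samples (9.29 ± 0.91, adjusted p = 1.0e-07). The groups did not overlap, and the lowest value belonged to the passage 5 sample. Pdx1 was at 164, 191, 30.8, 150 and 134 CPM in the triple-factor samples and at 14.0 to 36.4 CPM in the Pdx1+MafA samples, although both were sorted for the Pdx1 vector (2.62 ± 0.54, adjusted p = 0.0011). Mafa was at 3.56, 8.63, 3.46, 3.87 and 12.7 CPM against 0 to 4.21 CPM (2.70 ± 1.04, adjusted p = 0.073) and was not called. It was called higher in 7 of 22 alternatives, among them DESeq2, plain library totals, the replicate block and passage 2 alone. Reads of a vector and of the endogenous gene could not be separated in these counts. In the Pdx1+MafA group Mafa was under the detection floor in WT replicate 2 (0.174 CPM) and 6SA replicate 3 (0 CPM). Mean Pdx1 was 22.2 CPM in that group and 12.6 CPM in cells sorted for MafA alone. The RNA therefore did not show both factors in every Pdx1+MafA sample. The ratio of gene counts to spike-in counts, a measure of RNA per pool, was 1.32-fold lower in the triple-factor group, a difference within the spread of the samples (exact permutation test over 200 arrangements, two-sided p = 0.35).

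Across all genes 4279 of 24004 (17.8%) were called, 2262 of them higher (9.42%) and 2017 lower (8.40%) with Ngn3. The median log2 fold change over all genes was 0.05. The split depended on the scaling: with plain library totals in place of TMM the median of all genes moved to 0.30 and 67.6% of the calls were higher, against 52.9% here. Gene lists covering the endocrine programme, signalling, ductal identity, immunity, proliferation and metabolism are described by how many members were called. Those members that are named with their sample values were mostly taken by lowest adjusted p within the list, and further members were picked after their values had been seen.

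**Figure D1:**
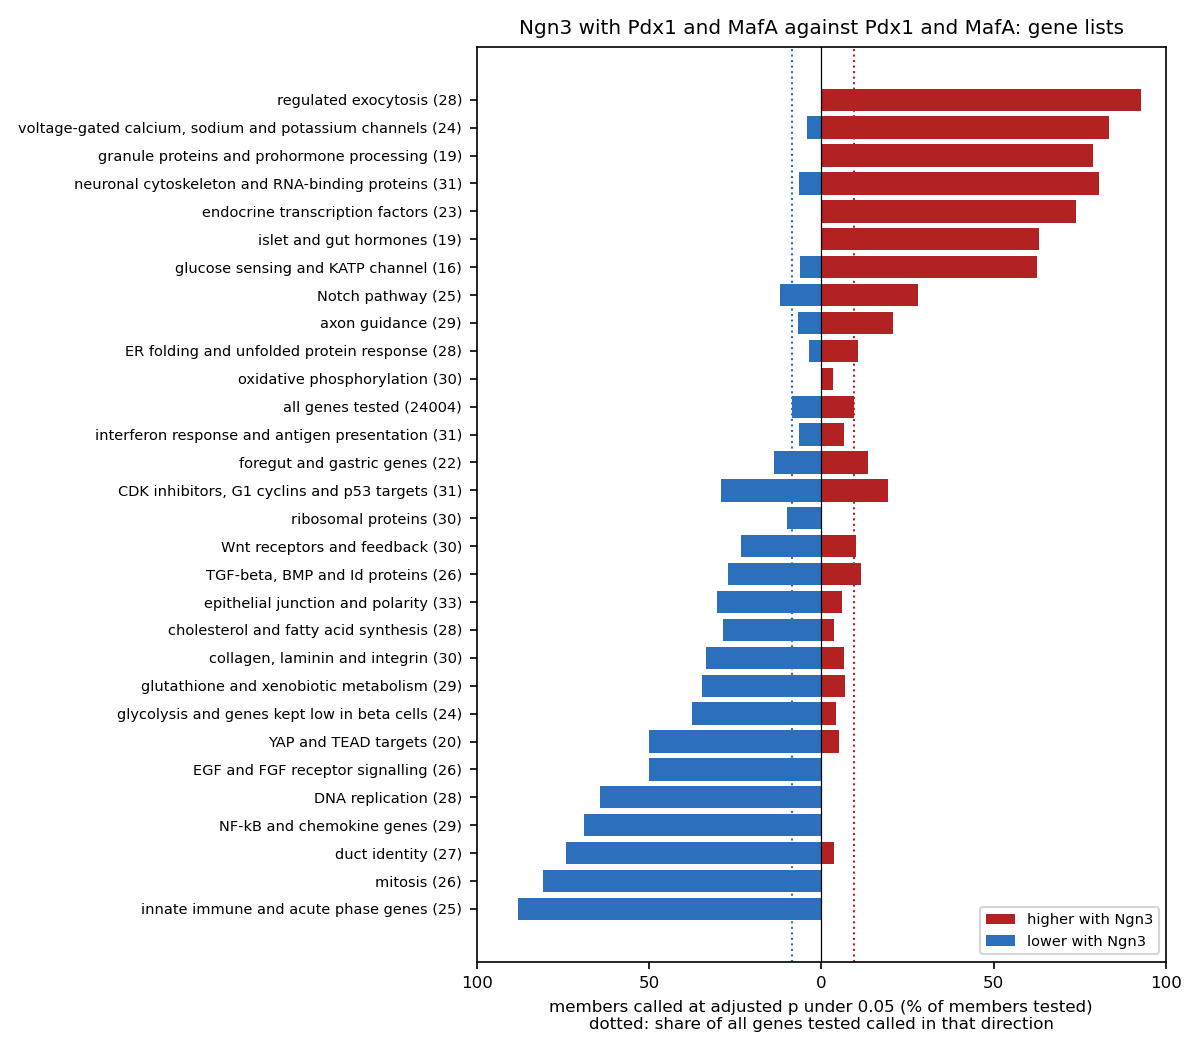
Share of the tested members of each gene list that were called higher (red, right) or lower (blue, left) in triple-factor cells than in Pdx1+MafA cells, in percent, with the number tested in brackets. Dotted lines mark the shares over all genes, 9.42% higher and 8.40% lower, and exocytosis (92.9% higher) and innate immune genes (88.0% lower) lie at the ends.

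The endocrine transcription factors that act with or after Ngn3 rose in 17 of 23 cases and fell in none, with a median log2 fold change of 7.63. Neurod1, a target of Ngn3, measured 199, 222 and 67.5 CPM in the WT and 220 and 232 CPM in the 6SA triple-factor samples. With Pdx1 and MafA alone it was at 0, 0.131 and 0.349 CPM (lowest, median and highest), a change of 10.50 ± 0.83 (adjusted p = 3.0e-09). Rfx6, a winged-helix factor needed for islet cell formation, measured 184, 227, 92.7, 214 and 343 CPM against 0, 0.0294 and 0.289 CPM. St18, a zinc finger factor related to Myt1, measured 188, 154, 66.6, 159 and 190 CPM against 0, 0.0589 and 0.434 CPM. In each of these genes the 2 groups were far apart and the passage 5 sample was the lowest of its group. Isl1, a LIM-homeodomain factor of all islet cells, measured 234, 267, 130, 134 and 76.4 CPM against 0, 0.131 and 0.536 CPM. Pax4, which favours the β- and δ-cell fates, rose to 8.91 to 62.4 CPM from at most 0.0766 CPM without Ngn3. Nkx6-1, a β-cell factor, was called but low, at 0.585 to 6.48 CPM against 0 to 0.843 CPM. The 6 that were not called included Hhex, a δ-cell and ductal factor, at 106 to 299.6 CPM against 47.8 to 479 CPM.

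Of 19 hormone genes tested, 12 were called higher and none lower, and their levels varied widely between samples. Gal, which encodes the neuropeptide galanin, measured 8922, 13409 and 42.5 CPM in the WT and 10710 and 1807 CPM in the 6SA triple-factor samples, against 0, 1.47 and 3.12 CPM (12.06 ± 1.496, adjusted p = 2.4e-06). Gip, a gut incretin hormone, measured 1163, 1219, 94.8, 1019 and 28.9 CPM against 0, 0.0723 and 0.353 CPM. Iapp, the amylin gene of β and δ cells, measured 1630, 1111, 389, 1650 and 463 CPM against 0, 0.732 and 8.67 CPM. The order of the 5 samples differed from hormone to hormone, and WT replicate 3 was the highest for Ghrl, the ghrelin gene, at 3053 CPM while it was the second lowest for Gip. Ins1 was at 153, 39.6, 0, 62.5 and 8.86 CPM with all 6 Pdx1+MafA samples at 0, at least 147-fold higher, and its near-identical copy Ins2 was at 14.2 CPM or less, so reads may be split between them. The median of the list was 6.11, or 4.15 with the genes that were at 0 in every Pdx1+MafA sample set to their bound, and without WT or 6SA triple-factor replicate 1 the first of these was 3.77 or 3.89. Markers of enteroendocrine cells, the hormone cells of the gut, overlapped this list: 8 of 12 tested were called higher, among them Fev, a serotonergic transcription factor, at 3.99 to 5.83 CPM against 0 to 0.0766 CPM. Tph1, the serotonin-synthesising hydroxylase, measured 32.2, 137, 1.46, 51.6 and 32.8 CPM against 0, 0.294 and 0.867 CPM. The number called fell to 5 without 6SA triple-factor replicate 1 or without WT triple-factor replicate 1.

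The proteins that pack and cut hormones rose in 15 of 19 cases, with a median log2 fold change of 8.07. Chgb, a granin of dense-core granules, measured 1657, 1021 and 232 CPM in the WT and 2589 and 2265 CPM in the 6SA triple-factor samples, against 0.12, 0.854 and 3.12 CPM (10.39 ± 0.97, adjusted p = 4.9e-08). Both prohormone convertases were raised: Pcsk1 stood at 149 to 279 CPM against 0.145 to 2.18 CPM, and Pcsk2 at 207 to 907 CPM against 0.12 to 0.723 CPM. Cpe, the carboxypeptidase that trims the cut peptides, was already present with Pdx1 and MafA at 45.4 to 96.9 CPM and reached 1015 to 7806 CPM with Ngn3. Pam, which amidates peptides, had the smallest change of those called, from 59.8 to 118 CPM without Ngn3 to 108 to 203 CPM with it (0.92 ± 0.32, adjusted p = 0.047). The monoamine transporters of the granule, Slc18a1 and Slc18a2, were not called, and Slc18a2 was at 6.56 to 14.6 CPM against 9.42 to 15.1 CPM.

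The machinery that fuses granules with the cell membrane showed the highest share of calls of any list, 26 of 28, with none lower and 23 members whose groups did not overlap (5.66% of all genes did not overlap in this direction). Vamp2, the granule SNARE, measured 108, 63.5, 42.4, 134 and 186 CPM against 9.95, 15.5 and 32.0 CPM (2.59 ± 0.31, adjusted p = 1.5e-06). Rimbp2, an active zone protein that ties calcium channels to release sites, measured 55.3, 52.2, 13.3, 54.3 and 57.2 CPM against 0, 0 and 0.0766 CPM. The called members ranged from the membrane SNAREs (Snap25 and Stx1a) and priming factors (Unc13a, Cadps) to the complexins and the calcium sensors (Syt4, Syt5, Syt7 and Syt13). Of the 2 members that were not called, Cadps2 was at 1.91 to 3.59 CPM against 3.12 to 11.6 CPM. Syp, synaptophysin of small vesicles, measured 89.3, 93.0, 11.8, 78.0 and 123 CPM against 0, 0.0589 and 0.349 CPM.

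Among the genes that couple glucose to secretion, 10 of 16 were called higher and 1 lower. Abcc8, the sulphonylurea receptor subunit of the ATP-sensitive potassium channel, measured 366, 376, 60.6, 338 and 643 CPM against 0.722, 4.02 and 36.5 CPM (4.91 ± 1.12, adjusted p = 0.0028). Its pore subunit Kcnj11 was at 4.54, 1.76, 0.931, 3.19 and 17.9 CPM against 0, 0.849 and 1.94 CPM and was not called (adjusted p = 0.19). The glucose transporters went opposite ways: Slc2a2 was called higher at 0 to 42.7 CPM against 0 to 2.65 CPM, and Slc2a1, the transporter of most dividing epithelia, fell from 140, 280 and 428 CPM to 36.4, 26.0, 144, 35.8 and 51.9 CPM (-2.30 ± 0.43, adjusted p = 0.00042). Ffar1, the fatty acid receptor that amplifies insulin release, measured 5.35, 0.293, 1.86, 6.17 and 21.2 CPM against 0, 0 and 0.145 CPM. Galr1, the galanin receptor, was at 16.04, 14.3, 0.798, 33.2 and 58.0 CPM with all Pdx1+MafA samples at 0, at least 68.2-fold higher. Glp1r, the incretin receptor of β cells, stayed at or below 0.648 CPM in the triple-factor samples and was not called.

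Voltage-gated calcium, sodium and potassium channels, which make endocrine cells electrically excitable, rose in 20 of 24 genes tested and fell in 1. All 8 calcium channel subunits on the list were called higher. Cacna2d1, an auxiliary subunit, measured 239.7, 334, 152, 189 and 300.1 CPM against 5.18, 8.14 and 11.4 CPM (4.91 ± 0.54, adjusted p = 4.4e-07), and the L-type pores Cacna1c and Cacna1d measured 14.4 to 128 CPM and 11.04 to 36.6 CPM, against at most 0.857 and 2.17 CPM. Kcnb2, a delayed rectifier, measured 61.6, 68.5, 30.4, 69.6 and 91.4 CPM with all 6 Pdx1+MafA samples at 0, at least 179-fold higher. Kcnma1, the large-conductance channel opened by calcium, measured 57.4, 103, 13.4, 69.0 and 184 CPM against 0, 0 and 0.12 CPM. Scn9a was at 7.78, 37.7, 0, 14.2 and 17.5 CPM with all Pdx1+MafA samples at 0, at least 43.0-fold higher, and Scn8a, which the ductal cells already held, was not called at 9.17 to 38.2 CPM against 14.3 to 32.1 CPM. The gene that fell was Kcnq1, an epithelial potassium channel, at 5.35, 7.46, 7.84, 11.3 and 31.8 CPM against 53.5, 59.7 and 89.2 CPM.

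Genes of the neuronal cytoskeleton and neuronal RNA-binding proteins, many of which islet cells share with neurons, rose in 25 of 31 and fell in 2. Nefm, the medium neurofilament, measured 326, 539, 159, 487 and 333 CPM against 0, 0.0985 and 0.353 CPM (11.26 ± 0.95, adjusted p = 1.1e-08), and Tubb3, the neuronal tubulin, 611, 649, 148, 762 and 369 CPM against 0, 0.304 and 2.60 CPM. Elavl4 and Rbfox3, RNA-binding proteins used as neuronal markers, reached 13.8 to 62.0 CPM and 0.931 to 33.0 CPM from at most 0.0589 and 0.174 CPM. The members that fell were Stmn1, which regulates microtubules in dividing cells, from 9.77, 16.96 and 41.5 CPM to 4.21, 2.63, 4.52, 3.26 and 2.69 CPM, and Dclk1, which also marks tuft cells, which went from 92.2, 126 and 434 CPM to 11.4, 21.7, 18.6, 5.56 and 13.2 CPM. Rest, the repressor of neuronal genes outside neurons, was counted in another list and was called lower, at 13.9, 0, 84.3, 5.29 and 32.4 CPM against 83.9, 104 and 117 CPM (-2.02 ± 0.67, adjusted p = 0.036). Of the axon guidance genes, 6 of 29 were called higher and 2 lower, and the lower calls ranged from 1 without 6SA triple-factor replicate 1 to 6 over the alternatives tried. Unc5a, a netrin receptor, rose to 13.2 to 67.2 CPM from 0 to 2.45 CPM and Plxna2, a semaphorin co-receptor, to 50.9 to 135 CPM from 8.02 to 39.3 CPM. Epha4, an ephrin receptor, fell from 101, 177 and 232 CPM to 13.9, 2.49, 105, 7.73 and 5.56 CPM.

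**Figure D2:**
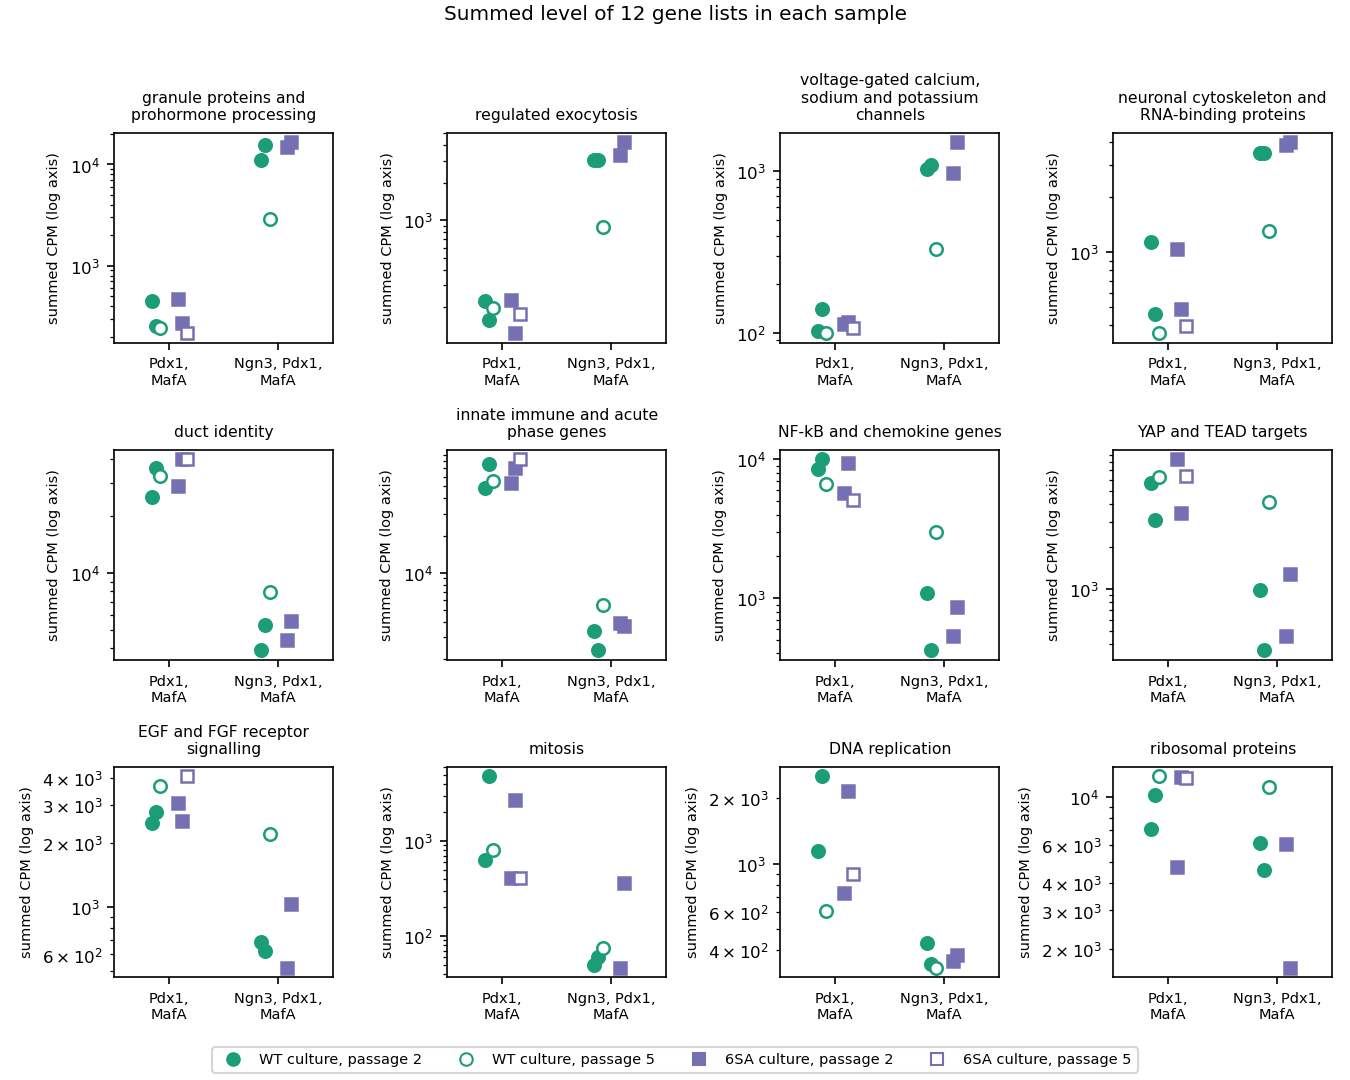
Summed CPM of 12 gene lists in each sample on log axes, with Pdx1+MafA samples on the left and triple-factor samples on the right of each panel, filled points at passage 2 and open points at passage 5. The endocrine sums of the passage 5 triple-factor sample (granule proteins 2920 CPM, exocytosis 880 CPM) lie between the other triple-factor samples and all Pdx1+MafA samples.

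The summed levels of the endocrine transcription factor, hormone, granule, exocytosis, channel and neuronal lists were higher in every triple-factor sample than in any Pdx1+MafA sample. Granule genes summed to 11035, 15455, 2920, 14919 and 16644 CPM with Ngn3 against 215 to 468 CPM without it, and exocytosis genes to 3050, 3042, 880, 3338 and 4244 CPM against 123 to 227 CPM. The passage 5 sample held the lowest of both sums and still exceeded every Pdx1+MafA sample. Without it the calls were 16 granule genes in place of 15, and exocytosis genes stayed at 26.

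The ductal programme fell: 20 of 27 tested members were called lower and 1 higher, against 8.40% of all genes, and the groups of all 20 did not overlap (5.42% of all genes did not overlap in this direction). The summed level went from 25243 to 40078 CPM with Pdx1 and MafA to 3894, 5306, 7976, 4425 and 5608 CPM with Ngn3. Muc1, an apical mucin, fell from 585, 869 and 1117 CPM to 45.6, 19.3, 124, 23.8 and 89.4 CPM (-3.89 ± 0.46, adjusted p = 1.1e-06). Slc4a4, the bicarbonate importer of duct cells, fell from 252, 366 and 430 CPM to 20.3, 16.4, 118, 14.2 and 43.6 CPM, and Ehf, an epithelial ETS factor, from 504, 670 and 837 CPM to 73.9, 74.0, 90.0, 61.1 and 252 CPM. Among the keratins, Krt19 went from 567, 1287 and 1524 CPM to 34.8, 5.27, 128, 6.10 and 60.2 CPM, Krt8 and Krt18 fell by 1.64 and 2.18 on the log2 scale, and Krt7 was not called at 642 to 1097 CPM against 890 to 2233 CPM. Sox9, the central transcription factor of duct identity, was not called, at 85.7, 61.6, 156, 62.1 and 116 CPM against 44.5, 143 and 222 CPM (-0.47 ± 0.55, adjusted p = 0.62). Epcam, the pan-epithelial adhesion molecule, was not either, at 324 to 1062 CPM against 159 to 2071 CPM. The member that rose was Ambp, a secreted protease inhibitor precursor, at 256, 623, 139, 286 and 64.5 CPM against 4.24, 42.1 and 59.0 CPM, and without 6SA triple-factor replicate 1 its adjusted p was 0.071.

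Of the foregut and gastric genes, 3 of 22 were called higher and 3 lower. These were 13.6% each, near the 9.42% and 8.40% of all genes. Foxa3 and Prox1, factors shared by liver and pancreas, rose by 1.86 ± 0.45 and 2.03 ± 0.48, and the goblet and endocrine cell peptide Tff3 reached 22.0, 3.07, 10.1, 8.48 and 28.3 CPM against 0, 0 and 0.145 CPM. Foxa2, Gata6 and Hnf4a, which endocrine and duct cells both use, were not called. Ctse, an aspartic protease of gastric and pancreatic duct lesions, fell from 48.6, 178 and 227 CPM to 11.1, 0, 11.4, 0.271 and 10.9 CPM.

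Of the innate immune and acute phase genes, 22 of 25 tested were called lower and none higher, with a median log2 fold change of -5.18, or -4.87 with genes at 0 set to their bound. Their sum fell from 48542 to 83029 CPM to 3397, 2342, 5502, 3893 and 3665 CPM, and Clu, the secreted chaperone clusterin, made up most of it, at 36311 to 62859 CPM against 2475, 2269, 4573, 3422 and 3295 CPM. Cd14, the co-receptor for lipopolysaccharide, measured 396, 596 and 836 CPM without Ngn3 and 17.1, 6.58, 34.8, 9.83 and 18.8 CPM with it (-5.18 ± 0.57, adjusted p = 5.0e-07). Lcn2, the iron-chelating lipocalin, went from 3237, 12327 and 15130 CPM to 446, 18.4, 509, 307 and 104 CPM. Ltf, lactoferrin, went from 358, 799 and 2462 CPM to 15.7, 0.439, 5.98, 8.61 and 9.46 CPM. Receptors and complement proteins were among them, and Tlr4 was at 1.05, 0.146, 0.931, 2.17 and 4.43 CPM against 17.3, 34.9 and 37.0 CPM and complement C3 at 1.02 to 89.6 CPM against 752 to 1791 CPM. Reg3b and Reg3g, near-identical lectins, were both called but share sequence. The 3 members not called were Tlr2, Tlr5 and Orm1, all with a median at or under 14.6 CPM in the Pdx1+MafA samples.

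NF-κB is held in the cytoplasm by inhibitors until stimuli such as TNF release it to the nucleus, where it drives chemokines and its own inhibitors. Of 29 NF-κB and chemokine genes tested, 20 were called lower and none higher. Among ligands and chemokines, Tnf went from 104, 138 and 194 CPM to 5.43, 0.293, 64.0, 0.407 and 0.174 CPM (-5.72 ± 0.83, adjusted p = 2.0e-05), Cxcl5 from 1583, 2583 and 5944 CPM to 110, 2.49, 84.7, 11.9 and 36.0 CPM, and Csf3 from 63.7, 161 and 254 CPM to 11.7, 9.80, 8.24, 9.495 and 3.91 CPM. WT replicate 3 held the highest Tnf and Icam1 levels of the triple-factor samples, 64.0 and 126 CPM, and still lay below all Pdx1+MafA samples. Without it 23 members were called. Of the feedback inhibitors, Nfkbia fell by 1.82 ± 0.47 and Tnfaip3 by 3.20 ± 0.60. Of the factor subunits themselves, Nfkb1 fell by 0.74 ± 0.24, Rel by 1.83 ± 0.37, and Nfkb2 and Relb were not called.

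Since most members of this list moved in one direction, their promoters were searched for the letters GGGNNTTTC, part of the NF-κB site, on both strands, the reverse being GAAANNCCC. Promoters were RefSeq windows on GRCm38.p6 from 250 bases before to 50 after each start site, found for 22 of the 30 members. The letters were present in 42.3% of the 26 windows of the list and in 37.5% of the 16 windows of the members called lower. The share was 5.18% in the windows of all genes called lower and 4.10% in all 17027 windows of genes tested. The list was put together from NF-κB and chemokine genes, so its share cannot show whether the letters go with the fall. The 250 bases upstream of the start site are printed for the called members Ccl20, a chemokine, and Tnfaip3, a ubiquitin-editing inhibitor, which hold a match there, with each match in capitals.
Ccl20 (chr1:83116516-83116765, plus strand): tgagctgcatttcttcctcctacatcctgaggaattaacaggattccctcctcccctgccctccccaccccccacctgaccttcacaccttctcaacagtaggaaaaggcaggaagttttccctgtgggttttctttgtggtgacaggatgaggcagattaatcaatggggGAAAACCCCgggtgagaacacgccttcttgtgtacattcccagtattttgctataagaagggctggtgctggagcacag
Tnfaip3 (chr10:19015411-19015660, minus strand): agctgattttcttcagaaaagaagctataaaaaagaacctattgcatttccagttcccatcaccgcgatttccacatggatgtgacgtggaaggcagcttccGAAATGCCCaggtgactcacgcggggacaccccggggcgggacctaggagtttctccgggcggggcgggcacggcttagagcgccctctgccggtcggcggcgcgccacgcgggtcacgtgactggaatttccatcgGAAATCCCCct
The match began 79 bases before the start site in Ccl20, and the first of 2 matches 148 bases before it in Tnfaip3. Ccl20 measured 0, 0, 1.46, 0 and 0.0868 CPM with Ngn3 against 19.8, 53.3 and 73.8 CPM without it, and Tnfaip3 6.24, 5.27, 83.6, 5.09 and 13.3 CPM against 73.4, 166 and 215 CPM. A run of letters is a description of the window and does not show that a factor was bound. The same search was made for CAGATG (reverse CATCTG), an E-box that proneural factors such as Ngn3 bind. It matched 14.7% of windows of genes called higher, 11.8% of those of genes called lower and 12.7% of all windows. Among the lists searched it ranged from 0% of the granule protein windows to 21.1% of the innate immune windows.

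Interferon response and antigen presentation genes were called in few cases. Of 31 tested, 2 were called in each direction, and the list median of -0.25 moved to -0.01 with plain library totals. H2-D1, a class I molecule with near-identical relatives, rose to 964, 1076, 486, 1320 and 836 CPM from 312, 388 and 534 CPM (1.21 ± 0.29, adjusted p = 0.0036), and Bst2, tetherin, fell from 30.6, 41.0 and 67.6 CPM to 9.07, 4.83, 37.0, 6.65 and 3.91 CPM. The lower calls of this list ranged from 1 to 7 over the alternatives tried and numbered 5 without WT triple-factor replicate 3.

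Growth factor ligands, receptors and feedback targets all included members that fell. Of 26 EGF and FGF genes, 13 were called lower and none higher, with a median of -1.57. Among the ligands, Btc (betacellulin) fell from 28.8, 35.8 and 43.9 CPM to 4.94, 2.93, 8.51, 1.49 and 1.48 CPM (-3.65 ± 0.41, adjusted p = 6.9e-07) and Hbegf from 540, 875 and 1085 CPM to 139, 83.0, 507, 97.1 and 71.3 CPM. Among the receptors, Erbb3 fell from 32.9, 56.2 and 84.3 CPM to 10.04, 12.7, 9.71, 3.26 and 14.8 CPM. Egfr, Erbb2, Fgfr2 and Met were also called lower, while Fgfr1 was not called at 9.66 to 36.5 CPM against 5.92 to 18.3 CPM. Of the targets that ERK signalling raises as feedback, Dusp6, Spry1, Spry2 and Errfi1 were lower and Dusp4, Dusp5, Spry4 and Etv5 were not called. Errfi1, the EGF receptor inhibitor, measured 48.1, 42.7, 185, 52.0 and 55.1 CPM against 282, 560 and 1094 CPM, and WT replicate 3 was again nearest to the Pdx1+MafA samples. This sample's EGF and FGF sum was 2201 CPM, against 521 to 1031 CPM in the other 4 and 2461 to 4070 CPM without Ngn3, and without it 16 members were called lower.

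YAP and TAZ are co-activators that carry mechanical and density signals to TEAD factors on DNA. Of 20 YAP and TEAD genes, 10 were called lower and 1 higher. Ankrd1, a direct target, measured 53.2, 0.878, 572, 12.1 and 27.5 CPM against 420, 1042 and 1733 CPM (-4.03 ± 0.85, adjusted p = 0.0014). Ajuba, a LIM scaffold that restrains the LATS kinases, measured 17.7, 0.146, 115, 2.85 and 1.04 CPM against 88.6, 134 and 165 CPM. F3, tissue factor, measured 28.7, 17.8, 50.1, 26.2 and 42.8 CPM against 120, 199 and 282 CPM and was 1 of 3 members whose groups did not overlap. Ctgf and Cyr61, the secreted targets used most as reporters, fell by 3.66 ± 0.93 and 2.82 ± 0.80, and Yap1 and Tead2 by 1.97 ± 0.65 and 2.43 ± 0.52. The summed level was 4149 CPM in the passage 5 triple-factor sample, inside the Pdx1+MafA range of 3107 to 8420 CPM, and 362 to 1276 CPM in the other 4. The higher call was Nt5e, an ectonucleotidase, whose log2 fold change turned to -0.12 without 6SA triple-factor replicate 2.

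The receptors and ligands of Wnt signalling included 7 of 30 members called lower and 3 higher. These were 23.3% and 10%, against 8.40% and 9.42% of all genes. Lgr5, the R-spondin receptor of organoid stem cells, fell from 18.3, 37.8 and 64.8 CPM to 5.51, 3.22, 1.86, 2.65 and 4.60 CPM (-3.48 ± 0.55, adjusted p = 6.0e-05), and Rnf43, the ligase that removes Frizzled receptors, from 70.6, 74.8 and 156 CPM to 17.01, 11.997, 8.51, 17.2 and 26.9 CPM. Wnt7a and Wnt7b, epithelial ligands, fell by 3.26 ± 0.66 and 2.34 ± 0.49, with WT replicate 3 at 66.6 and 139 CPM inside the Pdx1+MafA ranges. Rspo4, a secreted R-spondin, went the other way, to 103, 283, 48.1, 120 and 72.7 CPM from 0, 0.0972 and 0.572 CPM (9.28 ± 0.78, adjusted p = 2.0e-08). Axin2, the general feedback target of the pathway, was not called at 6.88 to 36.6 CPM against 15.7 to 44.8 CPM, and neither were Lgr4, Znrf3 and the β-catenin partner Tcf7l2. The lower calls numbered 13 with DESeq2.

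Notch lets a cell with more ligand hold its neighbours back from the endocrine fate. In the Notch list 7 of 25 members were called higher and 3 lower. Of the ligands, Dll4 reached 31.2, 31.7, 18.7, 58.7 and 28.1 CPM from 0, 0.0871 and 1.61 CPM (6.10 ± 1.17, adjusted p = 0.00068), Dner 94.2, 139, 16.5, 112 and 123 CPM from 0, 0 and 0.289 CPM, and Jag2 was also called higher. Jag1 fell to 28.8, 15.8, 71.5, 14.6 and 7.64 CPM from 49.8, 78.9 and 113 CPM. Dll1, which Ngn3 raises in the embryonic pancreas, was not called, at 6.14 to 59.0 CPM against 12.2 to 44.1 CPM. Of the receptors, Notch2 fell from 46.7, 52.1 and 74.3 CPM to 12.7, 9.66, 54.9, 7.73 and 9.72 CPM and Notch1 was not called. Hes6, an inhibitor of Hes1, rose to 305, 318, 174, 489 and 232 CPM from 63.9, 71.1 and 91.0 CPM, and the co-repressor Cbfa2t3 to 144, 88.1, 49.9, 122 and 104 CPM from 0, 0.0723 and 1.41 CPM. Hes1, the classical Notch target, was at 16.4, 0.732, 71.5, 6.04 and 43.3 CPM against 18.6, 44.7 and 186 CPM and was not called (adjusted p = 0.35).

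In the TGF-β and BMP list 7 of 26 members were called lower and 3 higher. Id2, an inhibitor of basic helix-loop-helix factors, fell from 232, 517 and 1079 CPM to 107, 94.7, 66.9, 84.2 and 31.2 CPM (-2.93 ± 0.47, adjusted p = 7.0e-05), and Id1 by 1.55 ± 0.47, while Id3 was not called. Bmp4, a ligand, and Fst, an activin trap, fell by 3.45 ± 0.63 and 3.80 ± 0.79. Bambi, a decoy receptor, rose to 168, 268, 73.0, 284 and 154 CPM from 0.12, 4.16 and 12.3 CPM (5.31 ± 0.86, adjusted p = 8.1e-05), and Acvr1c, the ALK7 receptor of islet cells, to 8.34, 5.56, 4.52, 2.44 and 10.4 CPM from 0, 0 and 0.349 CPM. The receptors Bmpr1a, Bmpr2 and Tgfbr1 and the mediators Smad1 and Smad5 were not called.

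**Figure D3:**
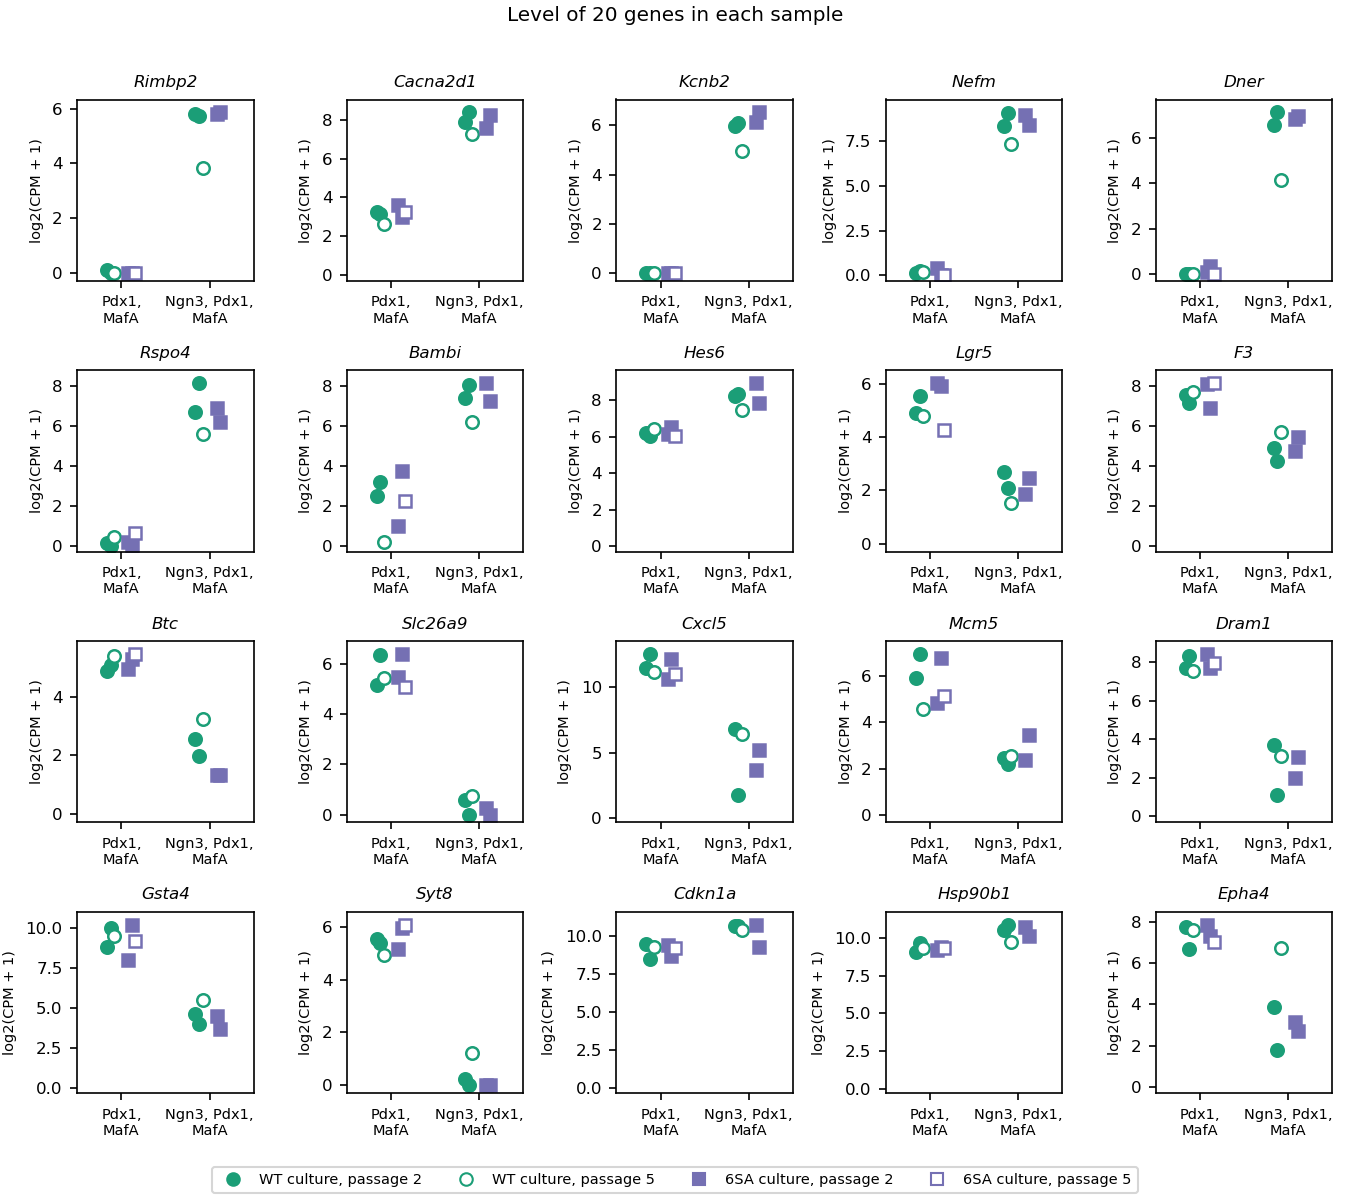
Level of 20 genes as log2(CPM + 1) in each sample, Pdx1+MafA on the left and triple-factor on the right of each panel, with filled points at passage 2 and open points at passage 5. Kcnb2, Nefm and Rspo4 lie at or near 0 for all Pdx1+MafA samples and well above it for all triple-factor samples, and Cxcl5, Btc and Slc26a9 lie lower in every triple-factor sample.

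Mitosis genes fell in 21 of 26 cases, with none higher and a median log2 fold change of -4.23, which was -6.25 without 6SA triple-factor replicate 2 and -3.50 without WT Pdx1+MafA replicate 2. Their summed level was 49.3, 60.0, 74.1, 46.4 and 365 CPM in the triple-factor samples and 405 to 4783 CPM in the Pdx1+MafA samples. The lowest sums without Ngn3 were close to the highest with it, and both replicate 2 samples of the Pdx1+MafA group stood high, at 4783 CPM in the WT and 2734 CPM in the 6SA cultures. Mad2l1, a spindle checkpoint protein, measured 6.32, 5.85, 4.25, 5.22 and 6.69 CPM against 18.0, 41.1 and 184 CPM (-3.71 ± 0.68, adjusted p = 0.00034), and Cdc20, the activator that ends metaphase, 0, 0, 1.73, 0.475 and 2.52 CPM against 7.29, 30.5 and 249 CPM. Mki67, the common marker of cycling cells, measured 2.19, 0, 0.266, 0.95 and 30.3 CPM against 13.9, 52.4 and 303 CPM. The 6SA replicate 2 alone reached into the Pdx1+MafA range for Mki67, Top2a and Ccna2. The count of lower calls was 10 without 6SA triple-factor replicate 1 and 13 without WT Pdx1+MafA replicate 2.

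The cell cycle homology region, read here as TTTGAA (reverse TTCAAA) on either strand, was searched for in the same promoter windows. It was present in 73.9% of the 23 windows found for 21 mitosis genes and in 72.2% of the 18 windows of those called lower. The share was 16.4% in the windows of all genes called lower and 12.8% in all windows. The list was chosen as mitosis genes, so its share cannot show whether the letters go with the fall. The upstream 250 bases of 2 of the called members, Cdc20 and Prc1, a midzone spindle protein, show the letters near the start site in capitals.
Cdc20 (chr4:118437344-118437593, minus strand): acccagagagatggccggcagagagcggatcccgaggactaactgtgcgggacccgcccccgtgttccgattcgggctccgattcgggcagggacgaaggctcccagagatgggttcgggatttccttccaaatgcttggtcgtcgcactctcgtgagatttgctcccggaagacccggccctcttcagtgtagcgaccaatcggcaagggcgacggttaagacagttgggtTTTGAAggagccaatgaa
Prc1 (chr7:80294226-80294475, plus strand): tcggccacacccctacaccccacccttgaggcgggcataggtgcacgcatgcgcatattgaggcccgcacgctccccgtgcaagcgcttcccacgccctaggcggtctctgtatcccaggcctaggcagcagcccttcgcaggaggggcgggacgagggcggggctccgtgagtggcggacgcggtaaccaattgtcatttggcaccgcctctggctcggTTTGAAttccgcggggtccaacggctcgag
They began 18 bases before the start site in Cdc20 and 30 bases before it in the Prc1 window. Prc1 measured 7.45, 4.54, 3.99, 6.04 and 13.1 CPM with Ngn3 and 11.7, 37.4 and 247 CPM without it.

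DNA replication genes fell in 18 of 28 cases, with none higher and a median of -2.11. Of the subunits of the replicative helicase, Mcm2 went from 52.4, 100.5 and 126 CPM to 19.4, 26.2, 28.7, 23.3 and 14.0 CPM (-2.09 ± 0.31, adjusted p = 2.5e-05) and Mcm5 from 22.8, 46.4 and 123 CPM to 4.54, 3.66, 4.79, 4.14 and 9.90 CPM, and 2 further subunits, Mcm4 and Mcm6, were called lower too. The 6SA replicate 2, which stood out for mitosis, did not stand out for the replication sum (379 CPM in a range of 332 to 434 CPM, against 604 to 2518 CPM without Ngn3). Leaving that sample out lowered the count to 11. Of the cell cycle regulators and p53 targets, 9 of 31 were called lower and 6 higher, and the list median of -0.09 became 0.03 and 0.16 with RLE size factors and plain totals. Ccnd1 and Cdk6, which drive entry into S phase, fell by 2.28 ± 0.47 and 2.59 ± 0.47, with WT replicate 3 at 351 and 435 CPM inside the Pdx1+MafA ranges. Cdkn1a, the p21 inhibitor, rose to 1630, 1601, 1359, 1697 and 632 CPM from 364, 598 and 710 CPM (1.25 ± 0.29, adjusted p = 0.0033), and Gadd45g by 1.46 ± 0.34. Without 6SA triple-factor replicate 1 neither passed (adjusted p = 0.078 and 0.23), and the higher calls of the list numbered 3, as they did without WT triple-factor replicate 2, while the lower calls numbered 5 without 6SA triple-factor replicate 2. Trp53 itself fell by 1.52 ± 0.33, and its targets Mdm2, Bax and Ccng1 were not called.

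Epithelial junction and polarity genes were called lower in 10 of 33 cases and higher in 2, with a median of -0.52. The tight junction proteins Cldn2 and Cldn3 fell by 4.28 ± 0.78 and 2.11 ± 0.46. Cldn2, the pore-forming claudin of leaky epithelia, measured 12.6, 0.732, 114, 13.3 and 123 CPM against 726, 882 and 1681 CPM. Grhl2, the transcription factor that maintains epithelial junctions, measured 2.19, 0.293, 19.3, 0.61 and 1.56 CPM against 15.7, 26.6 and 64.5 CPM. Cdh1, E-cadherin, was not called at 255 to 584 CPM against 399.7 to 761 CPM, and the desmosomal proteins Jup, Dsp, Dsg2 and Dsc2 were not either. Pard3, a polarity scaffold, rose to 139, 154, 147, 87.6 and 308 CPM from 38.3, 59.0 and 78.3 CPM (1.52 ± 0.27, adjusted p = 0.00028). Cdh2, N-cadherin, was called higher at 19.9 to 122 CPM against 4.34 to 33.0 CPM, but not without 6SA triple-factor replicate 2 (adjusted p = 0.14).

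Of the collagen, laminin and integrin genes, 10 of 30 were called lower and 2 higher. Integrin chains of epithelial cells were among them, and Itga2 fell from 57.6, 81.3 and 111 CPM to 3.56, 5.41, 22.2, 2.51 and 21.8 CPM (-2.91 ± 0.46, adjusted p = 5.9e-05) and Itgb6, which activates TGF-β, from 60.0, 85.1 and 164 CPM to 4.46, 6.00, 44.0, 1.22 and 10.5 CPM. Cd44, the hyaluronan receptor, fell from 1870, 2199 and 3050 CPM to 358, 332, 1712, 291 and 680 CPM. Dst, a linker of the cytoskeleton, rose to 114, 119, 60.2, 74.7 and 79.4 CPM from 12.5, 24.9 and 35.7 CPM. Of the basement membrane chains, Col4a1 and Col4a2 fell by 1.53 ± 0.39 and 1.07 ± 0.32, and the common β1 integrin Itgb1 was not called. The lower calls numbered 5 without 6SA triple-factor replicate 1 and 14 without WT triple-factor replicate 3.

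Glutathione and xenobiotic genes were called lower in 10 of 29 cases and higher in 2, the higher calls ranging from 0 to 3 over the alternatives tried. Gsta4, a transferase for lipid peroxidation products, fell from 250.5, 658 and 1175 CPM to 23.7, 14.9, 44.3, 21.4 and 11.8 CPM (-5.03 ± 0.68, adjusted p = 9.2e-06), and Gpx3, the secreted peroxidase, from 620.2, 741 and 1667 CPM to 186, 147, 122, 137 and 91.4 CPM. Gsta genes share sequence, so reads may be split among them. The targets of the Nrf2 response Nqo1, Gclc, Gclm, Hmox1 and Txnrd1 were not called.

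Glycolysis genes and genes that mature β cells keep low were counted as one list, of which 9 of 24 were lower and 1 higher. Ldha, lactate dehydrogenase, fell from 561, 777 and 1009.9 CPM to 222, 216, 343, 288 and 192 CPM (-1.64 ± 0.30, adjusted p = 0.00034) and Slc16a1, the lactate transporter, by 1.56 ± 0.48. Both are genes that β cells normally silence. The central enzymes Gpi1, Aldoa, Tpi1, Pgk1 and Pkm were not called, and the lower calls numbered 4 without 6SA triple-factor replicate 1 and 5 without WT triple-factor replicate 1. Nuclear genes of oxidative phosphorylation were called in 1 of 30 cases, the exception being Ndufa1, whose call was lost without triple-factor replicate 1 or Pdx1+MafA replicate 1 of either culture or WT Pdx1+MafA replicate 3, and their summed level of 2994 to 9198 CPM spanned the Pdx1+MafA range of 6036 to 8898 CPM, with 6SA replicate 2 the lowest. Cholesterol and fatty acid genes were lower in 8 of 28 and higher in 1, with Cyp51 down by 1.47 ± 0.28 and Sc5d by 1.15 ± 0.25, while the citrate lyase Acly rose by 1.48 ± 0.40 to 392.4 to 991 CPM from 215 to 410.5 CPM. That count was 2 without 6SA triple-factor replicate 1, 4 without 6SA Pdx1+MafA replicate 2 or WT Pdx1+MafA replicate 2, and 5 without 6SA Pdx1+MafA replicate 3.

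Of the endoplasmic reticulum folding genes, 24 of 28 were not called. Those called higher were 10.7% of the list, against 9.42% of all genes. Hspa5, the main folding chaperone and stress sensor, was at 766 to 1033 CPM against 973 to 1305 CPM. The 3 members that rose were Hsp90b1, an endoplasmic reticulum chaperone, to 1545, 1916, 849.8, 1732 and 1163 CPM from 547, 659.8 and 812 CPM (1.12 ± 0.24, adjusted p = 0.0019), Sel1l by 1.29 ± 0.31, and Ero1lb, the oxidase that serves proinsulin folding, to 83.3, 79.0, 15.4, 95.5 and 148 CPM from 0.871, 3.80 and 12.3 CPM. Atf3, a stress and immediate early factor, fell from 888, 1364 and 2785 CPM to 138, 117, 550.2, 149 and 309 CPM. Ribosomal protein genes were called lower in 3 of 30, Rpl3, Rpl4 and Rpl15, and the count ranged from 0 with plain library totals to 9 over the alternatives tried, with 1 without 6SA triple-factor replicate 2 and 6 without WT triple-factor replicate 3. Their sum was 6107, 4587, 11038, 6084 and 1638 CPM against 4726 to 12383 CPM, so the groups overlapped. The lower calls made up 10% of the list, against 8.40% of all genes.

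Genes outside every list were named by lowest adjusted p among those with at least 20 CPM in the higher group and no overlap. Hepacam2, an adhesion molecule found on enteroendocrine and tuft cells, measured 165, 228, 77.3, 320.1 and 459 CPM against 0, 0 and 0.236 CPM. Scgn, the calcium-binding protein secretagogin of islet cells, measured 584, 935, 155, 662 and 274 CPM against 0.12, 0.53 and 2.29 CPM. Ffar2, a receptor for short-chain fatty acids, measured 100.3, 132, 14.0, 128 and 46.3 CPM against 0, 0 and 0.145 CPM. Bex2, a small protein of neuroendocrine cells, reached 577, 606, 124, 654 and 132 CPM from 0.871, 2.87 and 5.59 CPM, and Rundc3a 138, 152, 51.1, 135 and 81.3 CPM from 3.49, 4.52 and 6.14 CPM. In each of these the passage 5 sample was the lowest of the triple-factor group.

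The genes that fell and were named by that rule included Slc26a9 and Hs3st1. Slc26a9, a chloride channel of airway, stomach and duct, was at 0.486, 0, 0.665, 0.203 and 0 CPM against 33.0, 42.4 and 83.4 CPM (-7.87 ± 0.93, adjusted p = 1.2e-06). Hs3st1, a heparan sulphate sulphotransferase, fell from 159, 178 and 226 CPM to 8.51, 4.10, 19.0, 8.75 and 7.21 CPM. Flrt3, an adhesion protein that binds FGF receptors, fell from 117, 154 and 323 CPM to 8.42, 11.4, 10.8, 6.38 and 13.9 CPM. Trf, transferrin, measured 13.5, 5.56, 10.4, 7.39 and 15.0 CPM against 110.3, 439 and 535 CPM. Slc39a4, the zinc importer, changed evenly, from 299, 588 and 680.5 CPM to 103, 75.6, 101, 83.6 and 83.6 CPM.

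Markers of cell types other than duct and endocrine were low in both groups. Acinar markers summed to 8.24 to 50.6 CPM with Ngn3 and 5.06 to 11.3 CPM without it, endothelial markers to 6.25 to 34.6 CPM against 0.349 to 9.14 CPM, and immune markers to 10.4 to 40.5 CPM against 15.3 to 28.4 CPM, where Ptprc, the common leukocyte antigen, did not pass the expression filter. Mesenchymal markers summed to 56.8 to 173 CPM against 8.19 to 74.8 CPM, and Col6a3 was the only member called, at 101, 129, 6.65, 92.04 and 28.9 CPM against 0, 0 and 0.118 CPM. Pdgfrb, Dcn, Lum and Thy1 did not pass the filter, and Col1a1 was at most 0.486 CPM with Ngn3. The part of these markers in the results was not tested.

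The wild-type and phosphomutant cultures were then compared. With Ngn3, 1167 genes were called in the WT cultures (4.86%, with 595 higher, 2.48%, and 572 lower, 2.38%) and 1390 in the 6SA cultures (5.79%, with 790 higher, 3.29%, and 600 lower, 2.50%). With the replicate number as a block, which the correlation between same-numbered samples allowed in the WT cultures, the WT count was 2392. The 768 genes called in both made up 65.8% of the WT and 55.3% of the 6SA calls. All 1167 WT calls and 1389 of the 1390 6SA calls had the same sign in the other culture, as did 69.7% of all genes tested. No gene passed the test of the difference between the cultures with edgeR, 777 had an unadjusted p under 0.05, DESeq2 called 14, and edgeR called 3 without WT triple-factor replicate 2. The counts within a culture rest on few samples: the WT count was 542, 495, 489 and 670 without WT triple-factor replicates 1 and 2 and WT Pdx1+MafA replicates 2 and 3, and the 6SA count was 734, 560, 779 and 726 without 6SA triple-factor replicates 1 and 2 and 6SA Pdx1+MafA replicates 2 and 3.

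In the mitosis list 15 members were called lower in the WT and 1 in the 6SA cultures, with medians of -5.89 and -2.58. None of these genes passed the test of the difference. The 6SA group held the triple-factor sample with the highest mitosis sum, 365 CPM, against 46.4 to 74.1 CPM in the rest. The part of this sample in the gap was not tested. Medians in the WT and 6SA cultures were 7.54 and 7.90 for endocrine transcription factors, 8.41 and 7.72 for granule proteins, 4.69 and 5.08 for exocytosis, -2.69 and -2.65 for the duct list and -5.20 and -4.55 for innate immune genes. YAP genes were called lower in 1 case in the WT and 5 in the 6SA cultures, with medians of -1.17 and -2.02, and the passage 5 sample with the high YAP sum belonged to the WT group.

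**Figure D4:**
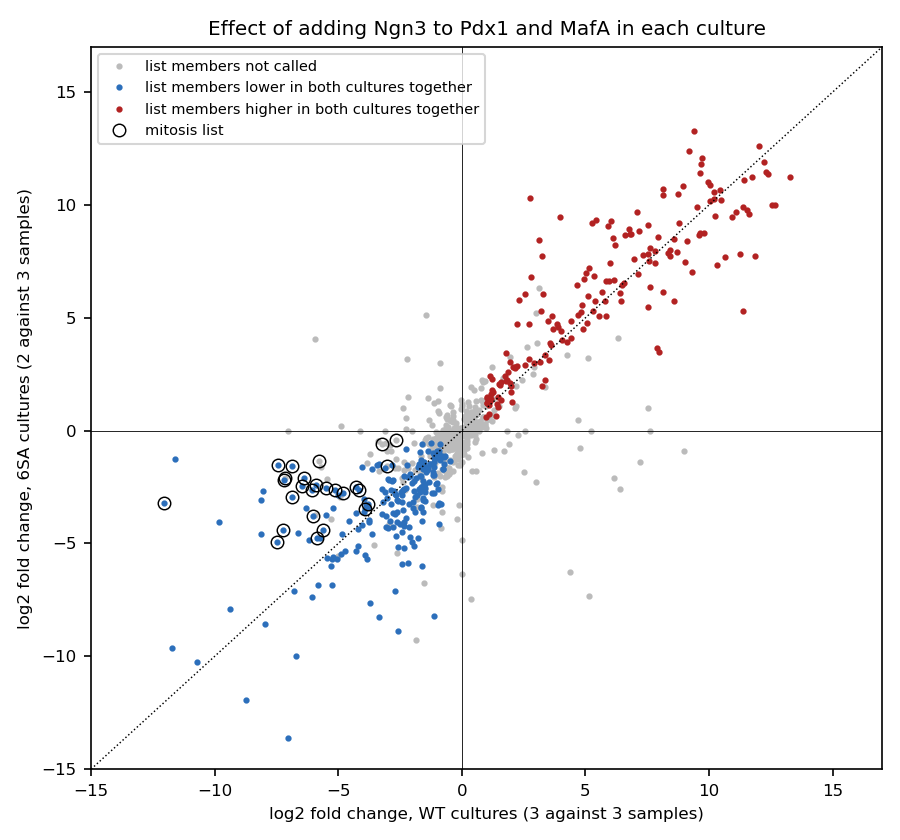
Log2 fold change for adding Ngn3 to Pdx1 and MafA in the WT cultures (x axis, 3 against 3 samples) and the 6SA cultures (y axis, 2 against 3 samples) for 766 list members, coloured by their call over both cultures, with mitosis genes circled. Most members lie near the diagonal, and the mitosis genes lie lower in the WT (median -5.89) than in the 6SA cultures (median -2.58).

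Whether the effect of Ngn3 depended on its partners was tested against the effect of Ngn3 beside Pdx1 alone (10 samples) and beside MafA alone (11 samples), comparisons that share no sample with the one above. The difference passed for 23 genes against the Pdx1 setting (0.0958%, with 3 further up, 0.0125%, and 20 further down, 0.0833%, beside both factors, and 1710 at an unadjusted p under 0.05) and for 12 against the MafA setting (0.05%, with 3 further up, 0.0125%, and 9 further down, 0.0375%, and 2244 unadjusted). Most list medians were further from 0 beside both factors, for example 4.92 for exocytosis genes against 3.23 beside Pdx1 and 3.37 beside MafA, 5.50 for neuronal genes against 2.16 and 3.40, and -5.18 for innate immune genes against -1.70 and -3.02. The EGF and FGF list had a median of -1.57 against -0.19 and -0.92, and the granule list 8.07 against 7.32 and 5.74. These list medians were not tested against each other. Factor levels and passage also differed between the settings. Mean Neurog3 was 186 CPM beside both factors, 69.9 CPM beside Pdx1 and 86.6 CPM beside MafA. Mean Pdx1 was 135 CPM in triple-factor cells and 30.5 CPM in cells with Ngn3 and Pdx1. Cells sorted for Pdx1 alone, and those for MafA alone from WT cultures, had no passage 5 sample. The part of these differences in the results was not tested.

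The 5 genes that differed from both settings were Trf, Syt8, Dmbt1, Fkbp9 and Lbp. Syt8, a synaptotagmin of epithelia, changed by -9.19 beside both factors, -1.54 beside Pdx1 and -2.61 beside MafA. The difference was -7.64 from the Pdx1 setting (adjusted p = 0.0053) and -6.58 from the MafA setting (adjusted p = 0.036). The level of Syt8 was 0.162, 0, 1.33, 0 and 0 CPM against 29.9, 43.6 and 67.6 CPM. With both 6SA triple-factor samples at 0, the -9.19 and both differences are imprecise. In the WT cultures the change was -6.31. Dmbt1, a scavenger receptor of mucosal defence, changed by -8.63, -1.85 and -3.02, and Lbp, the lipopolysaccharide-binding protein, by -5.52, -1.70 and -2.10. Fkbp9, a prolyl isomerase of the endoplasmic reticulum, rose, by 2.96, 0.68 and 0.53. Btc differed from the Pdx1 setting (-3.65 against -0.06, adjusted p = 0.0053), as did Gal, which was raised further beside both factors (12.06 against 3.56, adjusted p = 0.041). Xpnpep2, a membrane aminopeptidase, rose by 9.78 beside both factors and by 8.69 beside Pdx1 but changed by -0.75 beside MafA (adjusted p for the difference from the MafA setting = 0.036).

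These counts depended on single samples. Against the Pdx1 setting they were 242 without WT triple-factor replicate 3, 14 without WT triple-factor replicate 1, 8 without 6SA triple-factor replicate 1, and 8, 4 and 5 without WT and 5 and 6 without 6SA Pdx1+MafA samples (WT replicates 1 to 3 and 6SA replicates 2 and 3). Against the MafA setting they were 300 without WT triple-factor replicate 3 and between 0 and 5 without any other of the 11 samples.

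**Figure D5:**
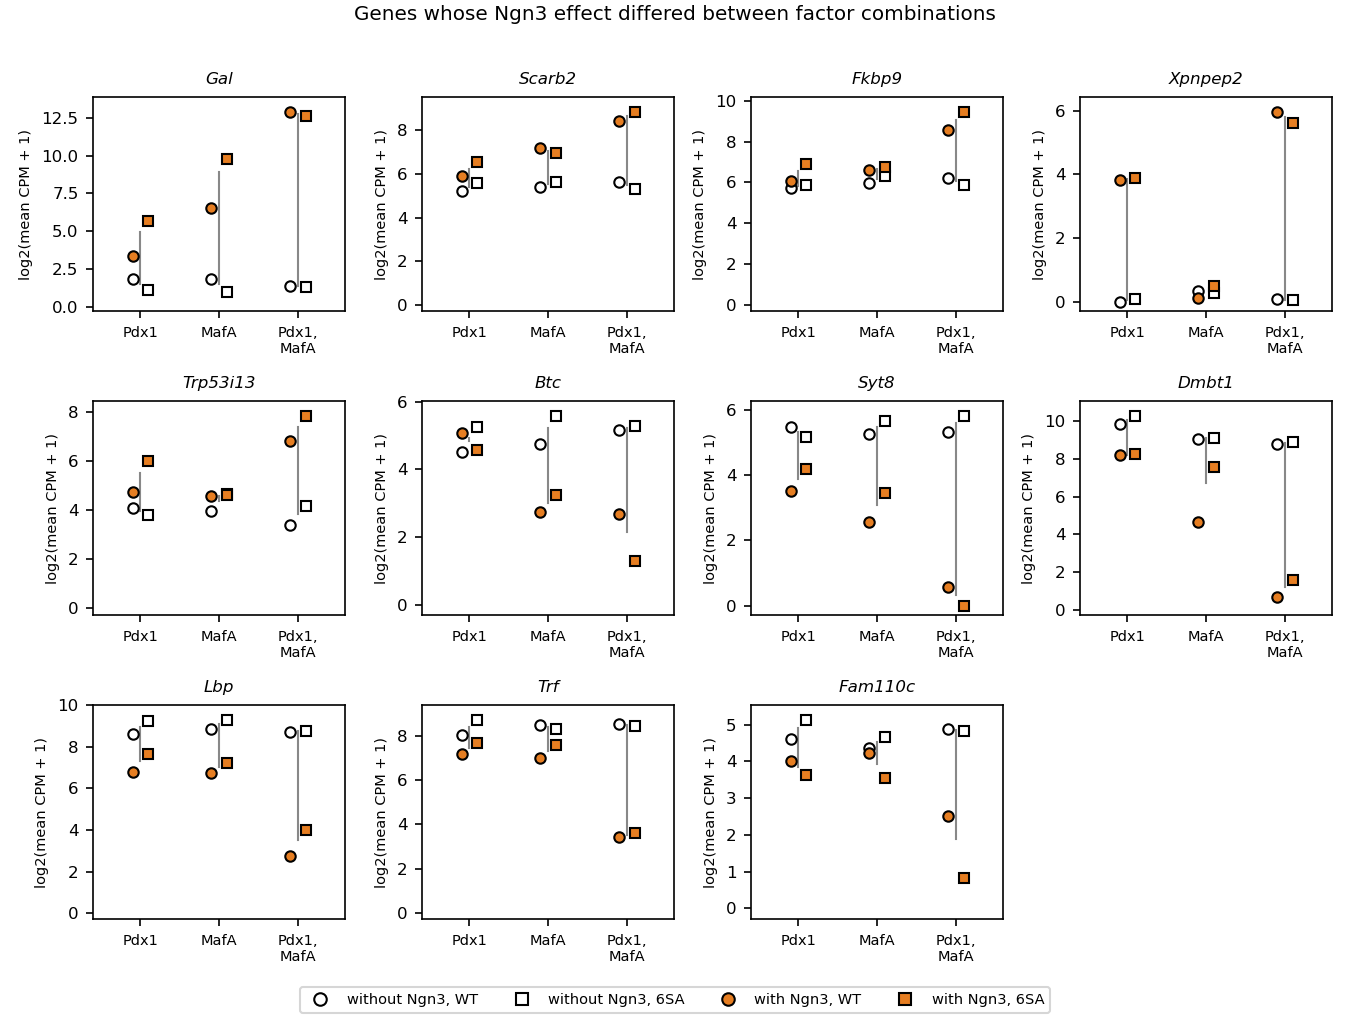
Mean level of 11 genes as log2(mean CPM + 1) without Ngn3 (white) and with Ngn3 (orange) in the WT (circles) and 6SA (squares) cultures, beside Pdx1, beside MafA and beside both factors, where lines join the averages over both cultures. For Syt8, Dmbt1, Lbp and Trf the line falls furthest beside both factors, while for Xpnpep2 it rises beside Pdx1 and beside both factors but not beside MafA.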

How the data were processed

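RNA from pools of 50 sorted organoid cells had been amplified, made into libraries and sequenced by the authors, aligned with GSNAP (2015-09-29) to mm10 and counted per Ensembl gene with HTSeq (0.5.3p3); the use of strand is not given in the sources used here. The deposited values are raw read counts for 46078 genes, 92 spike-in sequences and 5 summary rows. The summary rows held 33.9% to 67.3% of each library's reads and stayed out of library sizes and tests.

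Of 61 libraries, 58 passed the depth minimum of 1000000 gene counts, and technical repeats were summed. Genes seen in fewer than 5 libraries, or whose log2(CPM + 1) had a variance of 0.001 or less, were not tested. Counts were TMM scaled and fitted in edgeR 4.0.16 (R 4.3.3) by the quasi-likelihood test with all 12 conditions in 1 model. Contrasts compared Ngn3 with Pdx1 and MafA against Pdx1 and MafA within the WT and the 6SA cultures and averaged them, and p-values were adjusted by Benjamini-Hochberg with a threshold of 0.05. On simulated counts for the contrast over both cultures (24000 genes, 200 changed), 98% of 16-fold and 72% of 4-fold changes were recovered, with 4 unchanged genes among 174 calls.

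The members and gene lists were chosen with earlier results of these data known. Genes were named by lowest adjusted p, up to 4 per list in the direction with more calls and up to 2 in the other, with up to 10 per direction outside the lists (at least 20 CPM in the higher group, no overlap) and up to 5 per direction for each test of a difference. Some genes are not reported here. Further called members named in the text were picked after their values were seen. Uncalled members are given with levels, in some cases with a fold change or an adjusted p, or by name alone.

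Same-numbered samples deviated together in the WT cultures (correlations of 0.34, 0.12 and 0.17 over 5000 genes). In the 6SA cultures the values were -0.39 and -0.31. With 2 triple-factor samples there, their deviations from the mean mirror each other, so these values cannot decide whether samples are paired. The alternatives were RLE size factors, plain library totals, other gene filters, DESeq2 1.42.0, a fit of the compared conditions alone, a block for the replicate number, inclusion of the shallow libraries, 1 technical repeat per sample, passage 2 alone and each sample left out. After the data had been seen, edgeR was also run with its legacy option off. The detection floors cover counting error only, and reads carried no molecular identifiers. The SEs come from the fit over samples and include the spread between them.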

Additional observations from a re-analysis of the deposited data

Results flagged for a closer look

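In 27 of 360 groups of sample values, over genes and list sums, 1 sample lay apart from the other samples of its group by Dixon's test, where chance gives about 1 in 20. Of these, 20 were the WT triple-factor replicate 3, the passage 5 sample. Its sums were low for granule proteins (2919.7 CPM), exocytosis (880.4 CPM), channels (329 CPM), neuronal genes (1304 CPM) and enteroendocrine markers (347 CPM). It was also low for Neurod1 (67.5 CPM), St18 (66.6 CPM), Rimbp2 (13.3 CPM), Syp (11.8 CPM), Abcc8 (60.6 CPM), Dner (16.5 CPM) and Ero1lb (15.4 CPM). The same held for Slit1 (2.39 CPM), Scarb2 (112 CPM) and the transduced genes Pdx1 (30.8 CPM) and Neurog3 (14.6 CPM). It was high for Notch2 (54.9 CPM) and Errfi1 (185 CPM).

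The 6SA triple-factor replicate 2 lay apart with a mitosis sum of 365 CPM, Ehf at 252 CPM, Mcm5 at 9.90 CPM and Cdkn1a at 632 CPM. Among the Pdx1+MafA samples, WT replicate 2 lay apart for the endothelial marker sum (0.349 CPM), WT replicate 3 for Ctse (48.6 CPM) and 6SA replicate 3 for Scarb2 (24.7 CPM).

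The effect of Ngn3 beside both factors differed from that beside Pdx1, by edgeR's test of the difference itself, for Gal (8.50 on the log2 scale), Scarb2 (2.32), Fkbp9 (2.27), Btc (-3.59), Syt8 (-7.64), Dmbt1 (-6.78) and Lbp (-3.82). It differed from the effect beside MafA for Xpnpep2 (10.53), Trp53i13 (3.35), Fkbp9 (2.43), Syt8 (-6.58), Trf (-3.99), Dmbt1 (-5.61), Lbp (-3.42) and Fam110c (-3.19). The adjusted p of each was under 0.05.

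The 3 triple-factor libraries left out for their depth held granule protein sums of 13239, 12262 and 5742 CPM (WT replicate 2, 6SA replicate 2 and 6SA replicate 3), above the 215 to 468 CPM of the Pdx1+MafA samples. The last of these is the other passage 5 triple-factor library.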

How the results depend on the processing

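With the averaged contrast, 4279 genes were called, and the count was 4383 with RLE size factors, 4292 with plain library totals, 4490 with edgeR's expression filter, 4633 without a gene filter, 5198 with DESeq2, 4021 with only the compared conditions, 5529 with the replicate block (4176 of them shared), 4699 with all libraries, 3525 with the first technical repeat, 3904 at passage 2, 5098 without the legacy setting, which was chosen after seeing the data, and 3031 to 4767 with 1 sample left out. The WT count of 1167 became 2157 without a gene filter, 2481 with DESeq2, 2392 with the replicate block, 1959 without the legacy setting and 489 to 1702 with 1 sample left out. The 6SA count of 1390 became 2463, 2921, 2447 and 2567 in the same order, 2614 with only the compared conditions and 560 to 1596 with 1 sample left out. Whether same-numbered 6SA samples are pairs could not be decided, so the block there is not taken as a pairing. The difference between the cultures had 0 calls, 105 without a gene filter, 14 with DESeq2 and 0 to 3 with 1 sample left out. The count against the Pdx1 setting was 23, and became 11 with plain library totals, 542 without a gene filter, 222 with DESeq2, 10 with only the compared conditions, 54 with the replicate block, 103 at passage 2, 35 without the legacy setting and 4 to 242 with 1 sample left out. The count against the MafA setting was 12, and became 3, 587, 349, 2, 62, 119 and 26 under the same alternatives, 6 with edgeR's expression filter, 5 with all libraries, 2 with the first technical repeat and 0 to 300 with 1 sample left out. The cause of these shifts was not tested.

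Of 172 named genes, 148 lost no call under any of the 22 alternatives. This count includes Mafa, which was not called here and gained a call in 7 of them. With the replicate block none of the 172 genes lost its call and Mafa gained one. The fewest calls were kept without 6SA triple-factor replicate 1 (157). Rpl3, Rpl4, Irf1, Cbr3, Bhlha15 and Nt5e lost their calls most often, and Nt5e ranged from -0.12 without 6SA triple-factor replicate 2, where it turned, to 4.32. The median log2 fold change of all genes was 0.05, and became 0.17 with RLE size factors and 0.30 with plain totals. The spike-in ratio differed by -0.40 on the log2 scale, and by -0.06 to -0.74 with 1 sample left out. It differed by -0.93 at passage 2 (exact permutation test, p = 0.11) and by -0.50 with the replicate block (exact permutation test, p = 0.5). The smallest p these tests can give is 0.056 at passage 2 and 0.0625 with the block, so neither could fall under 0.05. Levels under 0.177 to 0.523 CPM lay below the detection floor.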
